A study of Mus musculus with 5 samples.

Results

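A set of 10 immediate-early genes was followed in mouse hepatocytes over a day without food. The genes are Fos, Jun, Junb, Egr1, Ier2, Atf3, Nr4a1, Dusp1, Dusp6 and Btg2, chosen by name as 10 of the 32285 genes in the count table, and all 10 were present. They were read out in 28810 hepatocytes, taken as barcodes with at least 1000 UMIs (unique molecular identifiers, 1 per captured transcript), at least 500 genes and 2 to 30% of UMIs from mitochondrial genes. The livers came from male wild-type (WT) C57BL/6J mice on normal chow (lab diet #5053), which had been accustomed over 3 days to 16 h without food at night and 8 h of feeding by day. Every animal received 20% sucrose in the drinking water on the day itself. The fed library was made after 4 h of feeding, and the other 4 libraries 4, 8, 16 and 24 h after chow and sucrose were withdrawn. The hours of sacrifice were 13 (fed), 17, 21, 5 and 13, so the fed and 24 h libraries share a clock hour and at the other times the hour of day and the time without food cannot be told apart. Each time point is 1 library of isolated cells, and the sources used here do not give the number of animals behind it. Differences below therefore describe libraries, no test across animals was possible, and the 95% intervals cover counting error only.

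Immediate-early genes are transcribed within minutes of a stimulus and need no new protein synthesis for it. Growth factors act on many of them through the ERK kinase pathway, and hormones that raise cyclic AMP, such as glucagon, act on several through the transcription factor CREB. Their transcripts are short-lived. In liver they are known for their response to partial hepatectomy, refeeding and injury, and they are also a standard sign of the enzymatic dissociation of a tissue into single cells. All 5 libraries were of isolated hepatocytes, no undissociated liver stands beside them, and the part of cell isolation in any level below was not tested.

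Levels are given as CPM, the UMIs of a gene per 1000000 non-mitochondrial UMIs summed over the hepatocytes of a library. The numbers of hepatocytes in the fed, 4, 8, 16 and 24 h libraries were 7826, 4567, 2716, 9125 and 4576, with 33521626 to 45532684 non-mitochondrial UMIs per library. Their median UMI counts differed, at 5408, 12097, 15005, 4391 and 8979 in the same order, as did their median mitochondrial shares, at 11.9, 19.1, 9.79, 13.7 and 16.3%. All 7 hepatocyte markers exceeded 10 CPM in every library, and summed to 96064 to 121035 CPM. Markers of other cells were far below these. The 10 endothelial markers summed to 96.7, 13.8, 13.2, 36.2 and 21.4 CPM, and the 10 macrophage markers to 43.5, 3.05, 0.148, 6.20 and 4.82 CPM, with 7 of these 10 at 0 at 8 h. The 4 cholangiocyte markers summed to 67.5, 40.8, 29.7, 70.3 and 17.1 CPM, nearly all of it Sox9 (16.6 to 70.3 CPM), with Epcam, Krt19 and Krt7 at 0 at 16 h. This sum was highest at 16 h and when fed, as was that of the 10 genes below. The endothelial and macrophage sums were highest when fed and next at 16 h. The part of these cells in the levels of the 10 genes was not tested beyond leaving out such barcodes, described below. The 5 erythroid markers summed to 24.5 to 67.0 CPM, highest at 8 h, where all of it was Alas2 and the other 4, globin genes, were at 0. The 6 stellate markers summed to 1.34 to 26.8 CPM, and the neutrophil and lymphoid markers to at most 1.01 and 4.34 CPM. Barcodes that carried markers of another cell type numbered 242, 10, 12, 76 and 53. In all, 146 of the 28810 cells share their barcode sequence with a cell of another library.

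The promoters of 8 of the 10 genes were matched in the RefSeq table (GRCm38.p6), those of Egr1 and Ier2 not being among them. The short site of the CREB and ATF family, TGACG on either strand, was present in the 250 bases before the start site in 6 of these 8 genes, against 17.8% of 32851 promoters of the same length. Nr4a1 held 4 short sites, a number reached by 0.137% of all promoters, and Dusp1 and Btg2 held the full palindrome TGACGTCA, found in 1.55%. Each palindrome counts as 2 overlapping short sites, 1 per strand. Shown are Nr4a1 and Fos, which have the widest ranges of level below, and Dusp1 and Btg2, which hold the palindrome. Capitals mark the short site or the palindrome, CGTCA being the short site on the other strand. The windows are on GRCm38.p6 chr15:101266596-101266845 (Nr4a1, plus strand), chr12:85473640-85473889 (Fos, plus strand), chr17:26508473-26508722 (Dusp1, minus strand) and chr1:134079156-134079405 (Btg2, minus strand), all directly before the RefSeq start.
Nr4a1: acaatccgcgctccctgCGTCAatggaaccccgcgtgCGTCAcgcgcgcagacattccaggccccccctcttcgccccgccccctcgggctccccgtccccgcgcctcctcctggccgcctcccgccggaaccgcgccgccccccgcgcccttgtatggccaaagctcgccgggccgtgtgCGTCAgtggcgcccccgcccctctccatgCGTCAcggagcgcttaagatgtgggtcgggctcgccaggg
Fos: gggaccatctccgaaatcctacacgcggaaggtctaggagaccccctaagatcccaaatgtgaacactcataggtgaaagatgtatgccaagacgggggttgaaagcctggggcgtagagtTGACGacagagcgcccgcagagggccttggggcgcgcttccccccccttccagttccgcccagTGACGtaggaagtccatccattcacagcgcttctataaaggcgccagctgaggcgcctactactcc
Dusp1: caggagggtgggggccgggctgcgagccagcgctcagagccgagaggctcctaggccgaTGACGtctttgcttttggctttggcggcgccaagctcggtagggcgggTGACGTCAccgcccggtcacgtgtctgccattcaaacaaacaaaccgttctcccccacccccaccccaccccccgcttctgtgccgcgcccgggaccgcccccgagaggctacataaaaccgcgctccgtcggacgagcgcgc
Btg2: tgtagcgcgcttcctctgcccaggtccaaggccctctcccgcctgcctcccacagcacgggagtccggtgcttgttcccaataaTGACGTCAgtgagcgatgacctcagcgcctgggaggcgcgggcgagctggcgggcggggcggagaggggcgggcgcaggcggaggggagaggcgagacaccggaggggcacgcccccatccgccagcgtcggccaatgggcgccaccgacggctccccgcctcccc
Jun and Dusp6 held no TGACG in this window. The AP-1 site TGANTCA was found in 0 of the 8 windows and in 6.75% of all promoters, and the serum response element (CArG box) in 0 of 8 and 1.47%. A match of letters is a description of the sequence, and binding was not measured. Sites outside these 250 bases, and those of Egr1 and Ier2, were not searched.

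The summed level of the 10 genes was low at 8 h, high at 16 h and low again at 24 h. It was 482 CPM (475 to 489) in the fed library, 426 at 4 h, 209 at 8 h, 700 at 16 h (691 to 709) and 212 at 24 h. The step from fed to 4 h rested on Dusp1, which made up 47.0% of the fed sum. Without Dusp1 the sums were 255, 326, 133, 516 and 147 CPM, so that 4 h lay above fed, and 5 of the 10 genes were higher at 4 h and 5 lower. With TMM scaling the 4 h sum of all 10 (449) also lay above the fed sum (438). The 16 h library held the highest value of 5 of the 10 genes and the 8 h library the lowest value of 7. No gene was highest at 8 or 24 h. Where every cell was reduced at random to 2000 non-mitochondrial UMIs, the means were 0.948, 0.796, 0.406, 1.42 and 0.375 UMIs of the 10 genes per cell, the same order but for 8 and 24 h, the 2 lowest libraries on both scales. The 2 libraries with the highest sums, 16 h and fed, also had the fewest UMIs per cell, and the part of this in the sums was not tested beyond that thinning. From 8 to 16 h Ier2 alone of the 10 was lower, as described below.

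**Figure D1:**
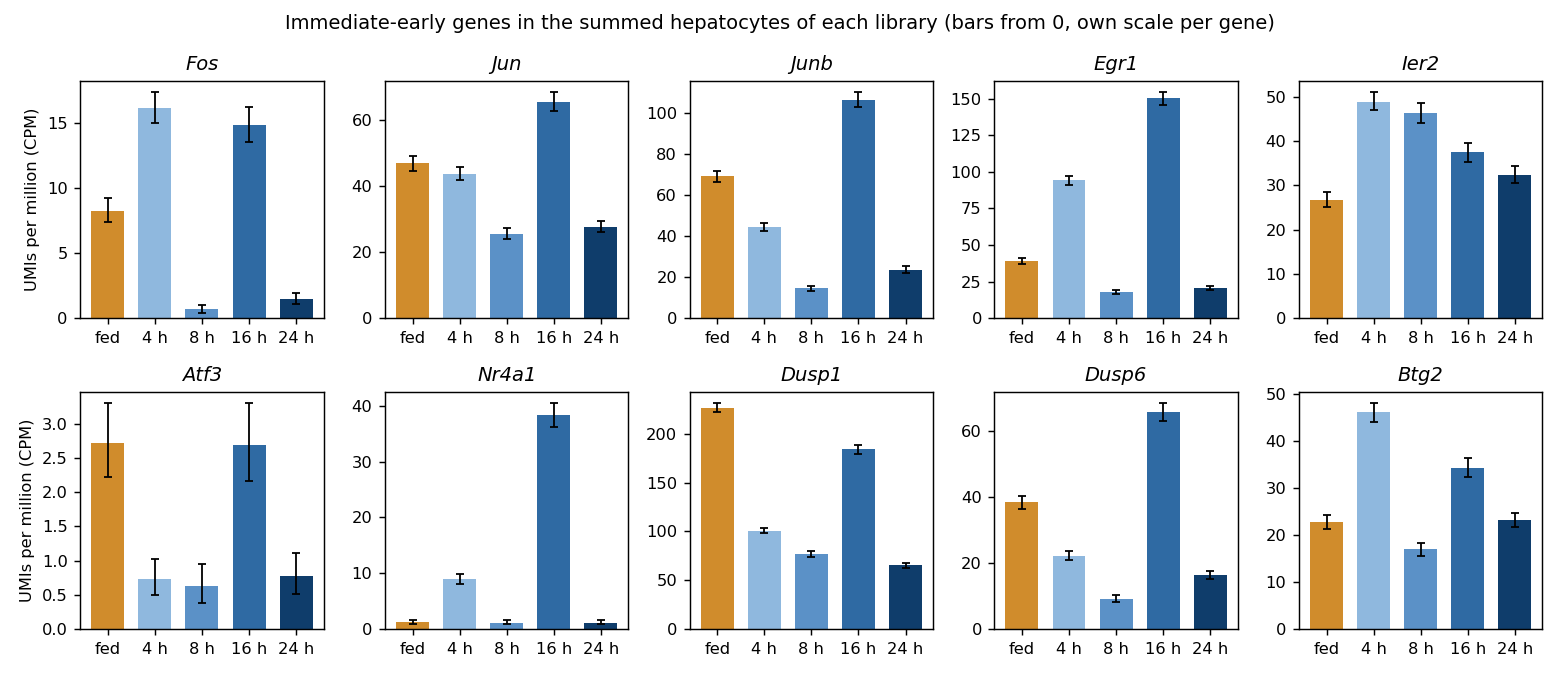
Level of each gene in the summed hepatocytes of the 5 libraries (x axis, time without food), in CPM on a linear axis from 0 with its own scale per gene. Bars are 1 library each and whiskers are exact Poisson 95% intervals. Nr4a1 stands at 38.3 CPM at 16 h against 1.12 at 8 and 24 h, while Ier2 stays between 26.8 and 48.95 CPM.

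Fos, which pairs with Jun proteins to form AP-1, had 312, 736, 23, 498 and 56 UMIs in time order, or 8.26, 16.2, 0.680, 14.9 and 1.49 CPM. It was high at 4 and 16 h, whose counting intervals for the ratio include no difference (log2 0.12, -0.04 to 0.29), intermediate in the fed library and low at 8 and 24 h. From 4 to 8 h Fos fell 23.8-fold (log2 -4.57, interval -5.24 to -3.97), from 8 to 16 h it rose 21.8-fold, and from 16 to 24 h it fell 9.97-fold. At 8 h the barcodes under 2% mitochondrial UMIs, described below, held 0.654 CPM of Fos. The folds against 8 h thus rest on a level near that of those barcodes. Junb, a second partner of Fos, was also lowest at 8 h and high at 16 h but, unlike Fos, was lower at 4 h than when fed, at 69.3, 44.5, 14.5, 107 and 23.7 CPM. Its 16 h level was 7.33 times that at 8 h and 1.54 times the fed level. Jun, the AP-1 subunit that can also pair with itself, spanned least of the 3, with 46.9, 43.8, 25.6, 65.6 and 27.8 CPM. Its 4 h and fed values differed by log2 -0.10, a sign that TMM scaling (0.11) and median-of-ratios scaling (0.05) turned. The 8 and 24 h values of Jun did not differ beyond counting error. Barcodes under 2% mitochondrial UMIs held 24.2 CPM of Jun and 13.1 of Junb at 8 h, and 22.2 of Junb at 24 h, near the hepatocyte levels.

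Atf3, a stress-induced factor of the ATF and CREB family, was rare in every library. Its 103, 33, 21, 90 and 29 UMIs gave 2.73, 0.725, 0.621, 2.68 and 0.772 CPM, so that Atf3 stayed under the 10 CPM minimum used for the counts below. The fed and 16 h libraries had nearly the same level (log2 -0.02, interval -0.45 to 0.40) and stood above the other 3, which did not differ among themselves beyond counting error. In the fed library the barcodes under 2% mitochondrial UMIs, described below, held more Atf3 than the hepatocytes (4.47 CPM), so the fed level is not above that background. From fed to 4 h the ratio was -1.91 on the log2 scale (interval -2.52 to -1.33). Atf3 was thus lower at 4 h, where Fos, Egr1 and Nr4a1 were higher than in the fed library.

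Egr1, a zinc-finger factor induced through ERK and serum response factor, was measured at 39.1, 94.1, 17.8, 150.1 and 20.5 CPM. Every step in the order of its levels exceeded counting error, including 24 h over 8 h (log2 0.20, interval 0.05 to 0.36). Against the fed library it was 2.40-fold higher at 4 h and 3.84-fold higher at 16 h, and 2.20-fold lower at 8 h. Nr4a1, an orphan nuclear receptor induced in liver by cyclic AMP, had the widest range of the 10 genes. It rested on 47, 408, 38, 1285 and 42 UMIs, or 1.24, 8.96, 1.12, 38.3 and 1.12 CPM. The 16 h library stood 30.8-fold above the fed library (log2 4.95, interval 4.53 to 5.40) and the 4 h library 7.20-fold (log2 2.85, 2.41 to 3.32). The fed, 8 and 24 h levels of Nr4a1 did not differ beyond counting error. A fall of 34.3-fold followed from 16 to 24 h.

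The phosphatases differed in the order of their levels. Dusp1, a nuclear phosphatase that inactivates p38, JNK and ERK, was highest in the fed library, at 227 CPM, and measured 101, 76.7, 184.0 and 65.1 CPM afterwards. Its 16 h value was below the fed value (log2 -0.30, interval -0.35 to -0.25), although 2.40 times that at 8 h. Dusp6, a cytoplasmic phosphatase specific for ERK and itself induced by ERK, was highest at 16 h and had the same order of levels as Junb and Jun, with 38.3, 22.2, 9.11, 65.5 and 16.2 CPM. Dusp6 rose 7.19-fold from 8 to 16 h and fell 4.04-fold by 24 h. Its 8 h level was near that in the barcodes under 2% mitochondrial UMIs, described below (8.51 CPM). At 4 h both phosphatases were lower than fed, by -1.17 for Dusp1 and -0.79 for Dusp6 on the log2 scale, while Egr1 was higher.

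Btg2, an antiproliferative protein that promotes deadenylation of mRNA, had 22.8, 46.1, 16.9, 34.3 and 23.2 CPM. It was highest at 4 h, 2.02-fold above the fed library, and its 24 h and fed levels did not differ beyond counting error. Ier2, a nuclear immediate-early protein, measured 26.8, 48.95, 46.3, 37.4 and 32.4 CPM. Ier2 was lowest in the fed library and was the only one of the 10 genes with a higher value at 8 h than when fed, although the small Nr4a1 difference changed sign in 6 of 11 other settings. Barcodes under 2% mitochondrial UMIs, described below, held 27.3 CPM of Ier2 when fed and 34.8 at 24 h. The hepatocyte levels of Ier2 at these times were thus not above those barcodes. The 8 h level of Ier2 was 1.73 times the fed level (log2 0.79, interval 0.67 to 0.90) and did not differ from the 4 h level beyond counting error. From 8 to 16 h, where the other 9 genes were higher, Ier2 was lower by -0.31 on the log2 scale (interval -0.42 to -0.20).

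Counts of genes past 2-fold are set here beside the share of all genes past it, among those with at least 10 CPM in either library. Against the fed library, 2 of 8 genes were 2-fold higher at 4 h (Egr1 and Btg2, background 3.67%) and 1 was lower (Dusp1, background 6.04%). At 8 h 0 of 7 were higher (5.68%) and 4 were lower (Junb, Egr1, Dusp1 and Dusp6, 11.2%). At 16 h 2 of 9 were higher (Egr1 and Nr4a1, 2.87%) and 0 lower (3.6%). At 24 h 0 of 7 were higher (4.73%) and 3 lower (Junb, Dusp1 and Dusp6, 8.77%). The median ratio of all 10 genes to fed was 0.39 (4 h), -1.35 (8 h), 0.61 (16 h) and -1.08 (24 h) as log2, beside -0.09, -0.08, -0.02 and -0.10 over all genes at the minimum. These 4 comparisons share the fed library. The call for Btg2 at 4 h sits at the threshold (log2 1.02) and held in 5 of 11 other settings, and that for Dusp1 at 4 h was lost with TMM scaling (-0.96). Fos at 4 h lay just under the threshold (0.97) and passed it in 5 of 11 other settings, among them 3000 or more UMIs (1.03) and leaving out barcodes of another cell type (1.01), each of which gave 3 genes higher. With TMM scaling 4 genes were 2-fold higher at 4 h, Fos (1.18) and Ier2 (1.08) joining Egr1 and Btg2, and 0 were lower. With median-of-ratios scaling the same 4 were higher, Fos at 1.12 and Ier2 at 1.02. Ier2 also passed 2-fold at 8 h with TMM scaling (1.03). Egr1 at 8 h kept its call in 8 of 11 other settings and was at -0.89 with TMM scaling. Atf3 never reached the minimum, Nr4a1 did only through the 16 h library, and Fos did only through the 4 and 16 h libraries, so a gene that passed in this way had to differ from a low library and the counts are a description.

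Between neighbouring libraries the counts were larger. From 4 to 8 h 0 of 8 genes were 2-fold higher (background 1.12%) and 5 were lower (Fos, Junb, Egr1, Dusp6 and Btg2, 2.06%). From 8 to 16 h 8 of 9 were higher, Ier2 being the exception (10.5%), and 0 were lower (7.25%). From 16 to 24 h 0 of 9 were higher (5.19%) and 7 were lower (Fos, Jun, Junb, Egr1, Nr4a1, Dusp1 and Dusp6, 5.78%). The median ratios of all 10 genes were -1.36, 2.48 and -1.91 on the log2 scale, beside -0.01, 0.10 and -0.11 over all genes. Consecutive comparisons share a library. Btg2 from 8 to 16 h (log2 1.02) kept its call in 7 of 11 other settings and Dusp6 from 4 to 8 h in 10, all on hepatocytes. In the barcodes under 2% mitochondrial UMIs alone, described below, the ratios from 4 to 8 h of 4 genes had the other sign. On the log2 scale these were Jun (0.42 against -0.77 in hepatocytes), Dusp1 (0.13 against -0.39), Dusp6 (0.07 against -1.28) and Btg2 (0.26 against -1.45). Ier2 in those barcodes was higher at 16 h than at 8 h (0.33) and higher again at 24 h (0.31), against -0.31 and -0.21 in hepatocytes. All 10 genes together had 1464, 174, 116 and 2312 UMIs in those barcodes at 4, 8, 16 and 24 h. No counting interval was made for the ratios there, and their signs are not shown to exceed counting error.

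**Figure D2:**
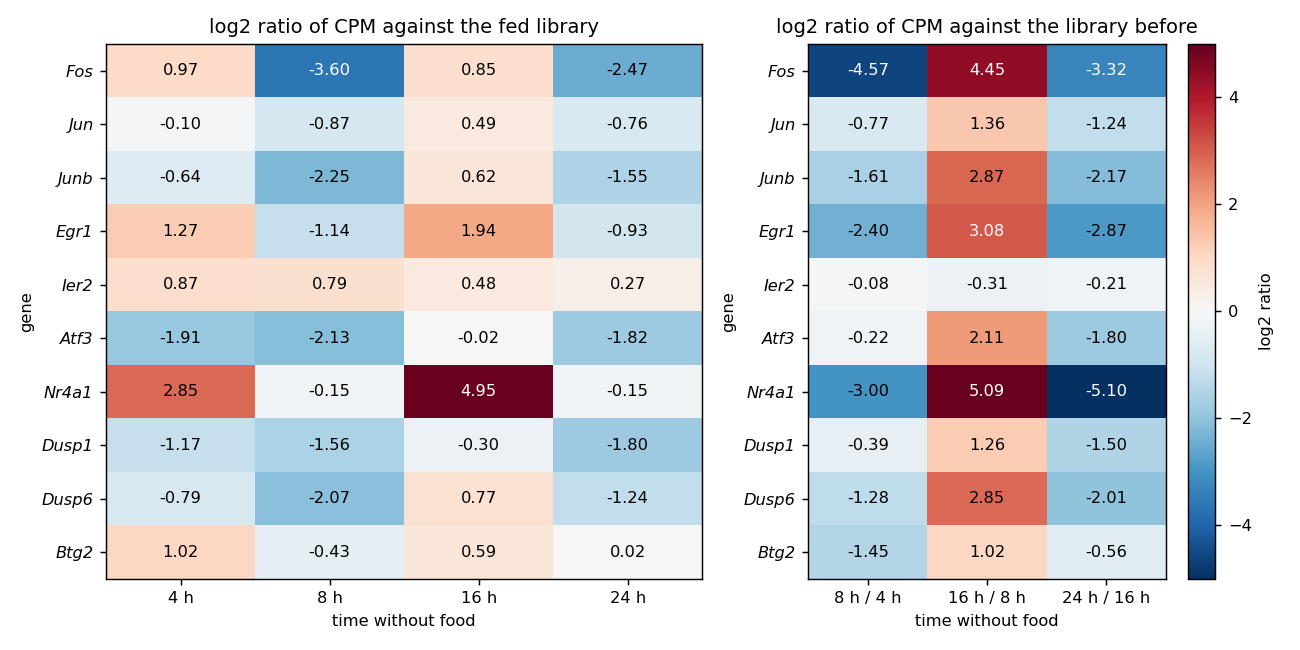
Log2 ratios of CPM for each gene (y axis) against the fed library (left, x axis: time without food) and against the library before it (right), 1 library each, in red where higher and blue where lower. The 16 h against 8 h column is positive for every gene but Ier2 (-0.31), and the 24 h against 16 h column is negative for all 10, from -0.21 (Ier2) to -5.10 (Nr4a1).

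Scaling moved the reference for these ratios. Over the 7701 genes compared, the median log2 ratio to fed was -0.08 at 4 h and -0.08 at 8 h with CPM, and 0.13 and 0.16 with TMM factors. Leaving out barcodes with markers of another cell type moved the ratios to fed at 4 h from 0.97 to 1.01 for Fos, past 2-fold, and from 1.02 to 1.04 for Btg2. Leaving in the low-mitochondrial barcodes described next took Egr1 at 24 h against fed from -0.93 to -1.30.

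Barcodes under 2% mitochondrial UMIs, which were not counted as hepatocytes, made up 21.7, 53.5, 17.3, 2.50 and 54% of the barcodes that passed the UMI and gene minimum. The 10 genes summed to 241, 129.9, 114, 295 and 124 CPM in them, so the hepatocytes stood 2.004, 3.28, 1.84, 2.37 and 1.72 times higher. The gap differed between genes. At 4 h Fos was 14.0-fold, Nr4a1 12.6-fold and Egr1 12.3-fold higher in hepatocytes than in these barcodes, whereas Ier2 was 1.34-fold higher. In these barcodes alone Egr1 at 4 h was at 7.63 CPM against 10.2 when fed, the other order than in hepatocytes. The ratio of 4 h to fed was negative there for Fos (log2 -1.59) and Btg2 (-0.18) as well. All 10 genes together had 968 UMIs in these barcodes when fed and 1464 at 4 h. No counting interval was made for these ratios, and their signs are not shown to exceed counting error. Endothelial-marker barcodes, from 9 cells at 4 h to 181 cells in the fed library, had sums of 557, 378, 498, 929 and 445 CPM. These exceeded the hepatocyte sums in every library but that of 4 h. Without the barcodes of any other type, 10 to 242 per library, no summed level of the hepatocytes moved by more than its counting interval.

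Per cell the transcripts were sparse. With each cell thinned to 2000 non-mitochondrial UMIs (6382, 3494, 2496, 7628 and 4351 cells, the shallower 1444, 1073, 220, 1497 and 225 being left out), at least 1 UMI of the 10 genes was found in 57.8, 50.7, 31.2, 70.5 and 29.3% of cells. The exact Clopper-Pearson interval was 69.4 to 71.5% at 16 h and 28.0 to 30.7% at 24 h. Unthinned, the shares were 74.8, 71.6, 80.6, 81.8 and 60.7%, and the 8 h library, the deepest, changed place. These values come from 1 random draw per cell. The mean over all possible draws, which needs no random number, was 57.4, 51.3, 33.2, 70.1 and 29.1%, so that at 8 h the draw used here had 779 cells with a UMI against 828 on average. None of the cell types here is known to lack these genes, so the background is given as the thinned low-mitochondrial barcodes, of which 36.6, 22.3, 16.8, 50 and 19.9% had a UMI (410, 1915, 202, 18 and 5400 barcodes). The hepatocyte share exceeded that of these barcodes in all 5 libraries, the 16 h one resting on 18 barcodes.

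The genes differed in how many cells showed them. Of the 50 shares of single genes by library, 21 lay above the interval of the low-mitochondrial barcodes, and in 9 the share in those barcodes was as high or higher. These 9 were Ier2 when fed and at 16 and 24 h, and Junb at 8 and 24 h. The others were Atf3 when fed and at 24 h, and Fos and Dusp6 at 8 h. For these 9 no level above those barcodes is read, and what those barcodes are was not tested. Some rest on few barcodes, with 18 at 16 h and 202 at 8 h. Ier2 at 24 h, for example, was found in 5.79% of hepatocytes and 6.91% of those barcodes, and Dusp6 at 8 h in 1.28 and 2.97%. Dusp1 was detected in 34.2, 17.4, 13.8, 29.1 and 10.2% of thinned cells. Egr1 was detected in 6.53, 14.0, 3.81, 23.8 and 3.17%, so that 1819 of 7628 cells had a UMI at 16 h. Nr4a1 went from 0.235% of fed cells to 1.75% at 4 h and 7.499% at 16 h (interval 6.92 to 8.11), with 0.280% at 8 h and 0.0460% at 24 h. As the mean over all draws, these 5 shares of Nr4a1 were 0.231, 1.63, 0.203, 7.37 and 0.199% in time order. Unthinned, 1071 of 9125 cells had an Nr4a1 UMI at 16 h. In the draw used here, only the 4 h share of Nr4a1 lay above the interval of the low-mitochondrial barcodes (0.0127 to 0.377%). At 16 h these intervals reached 18.5% for Nr4a1, 27.3% for Egr1 and 47.6% for Dusp1, above the hepatocyte shares. Fos had a UMI in 21 of 2716 unthinned cells at 8 h, and the draw used here kept none of them. As the mean over all draws, the share of thinned cells with Fos was 0.115% at 8 h, against 2.78% at 4 h.

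Cells with several of these transcripts were rare but more frequent at 16 h. At least 3 of the 10 genes were detected in 3.57, 4.04, 0.681, 11.995 and 0.575% of thinned cells, and the highest number in 1 cell was 7, at 16 h. A higher level raises such a share by itself, and no share expected from the levels alone was computed. The variance of the summed UMIs divided by their mean (Fano factor, 1 for pure counting) was 1.22, 1.29, 1.19, 1.35 and 1.17, beside a median over single genes of 1.02, 1.01, 1.01, 1.01 and 1.03. A sum of genes and a single gene are not the same quantity. Among single genes at 16 h, Fos (1.22), Dusp1 (1.21) and Egr1 (1.21) varied more than 97.3% of genes, and Junb (1.01) and Ier2 (1.001) varied little beyond counting. Egr1 had a Fano factor of 1.23 in both the fed and the 4 h library.

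**Figure D3:**
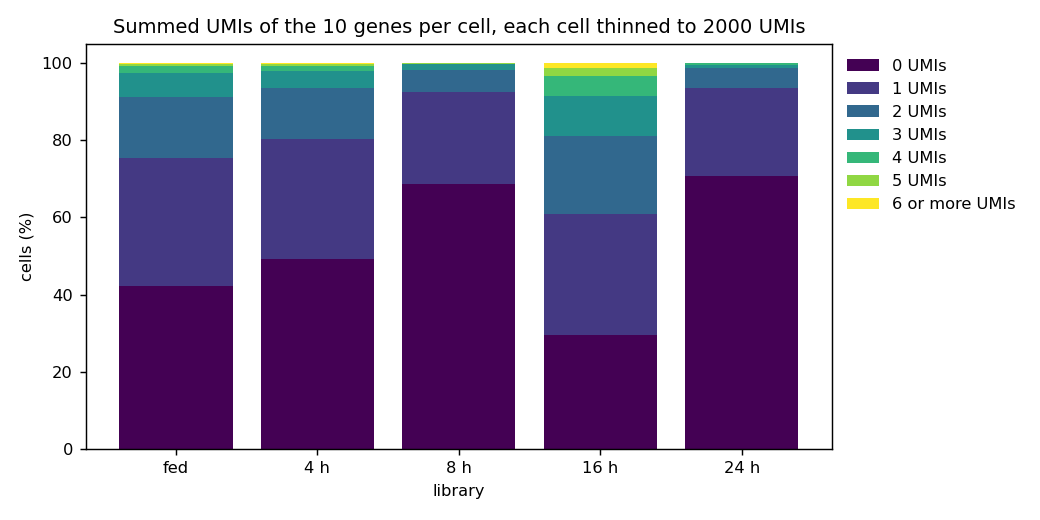
Share of hepatocytes (y axis, %) by the summed UMIs of the 10 genes in a cell, with every cell thinned to 2000 non-mitochondrial UMIs, for the 5 libraries (x axis). Cells with 0 UMIs make up 29.5% at 16 h and 70.7% at 24 h, and cells with 6 or more reach 1.35% at 16 h.

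Within a library the genes were only weakly co-detected. Over the 45 pairs (36 at 8 h, where those with Fos were undefined), the median Pearson correlation of log2(thinned UMIs + 1) across cells was 0.0073, 0.016, 0.0087, 0.020 and 0.0015, beside 0.0015, -0.00080, -0.0040, 0.00019 and -0.00047 for pairs of 1 of the 10 with another gene. No pair reached 0.1 in any library in this draw. The highest values were 0.064 for Fos with Egr1 (fed), 0.072 for Fos with Btg2 (4 h), 0.072 for Ier2 with Dusp6 (8 h), 0.074 for Nr4a1 with Dusp1 (16 h) and 0.039 for Dusp1 with Btg2 (24 h). Cells of a library share their isolation and depth, and at such counts weak values like these are a description only. At 16 h, where counts were highest, Egr1 and Nr4a1 were found together in 187 cells against 136.4 if independent, and Nr4a1 and Dusp1 in 219 against 166.2. The leading pair changed with another draw in every library but that of 16 h, where Nr4a1 with Dusp1 led again (0.079). With 1000 UMIs per cell it changed in every library, and with 4000 in every library but the fed one. In another random draw to 2000 UMIs, Fos with Egr1 reached 0.13 at 24 h. With 4000 UMIs per cell, 3 pairs passed 0.1 at 16 h, led by Jun with Nr4a1 at 0.12, and 1 at 4 h, Egr1 with Btg2 at 0.10. With 1000 UMIs per cell, Fos with Jun reached 0.14 at 8 h, where Fos was rarest.

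**Figure D4:**
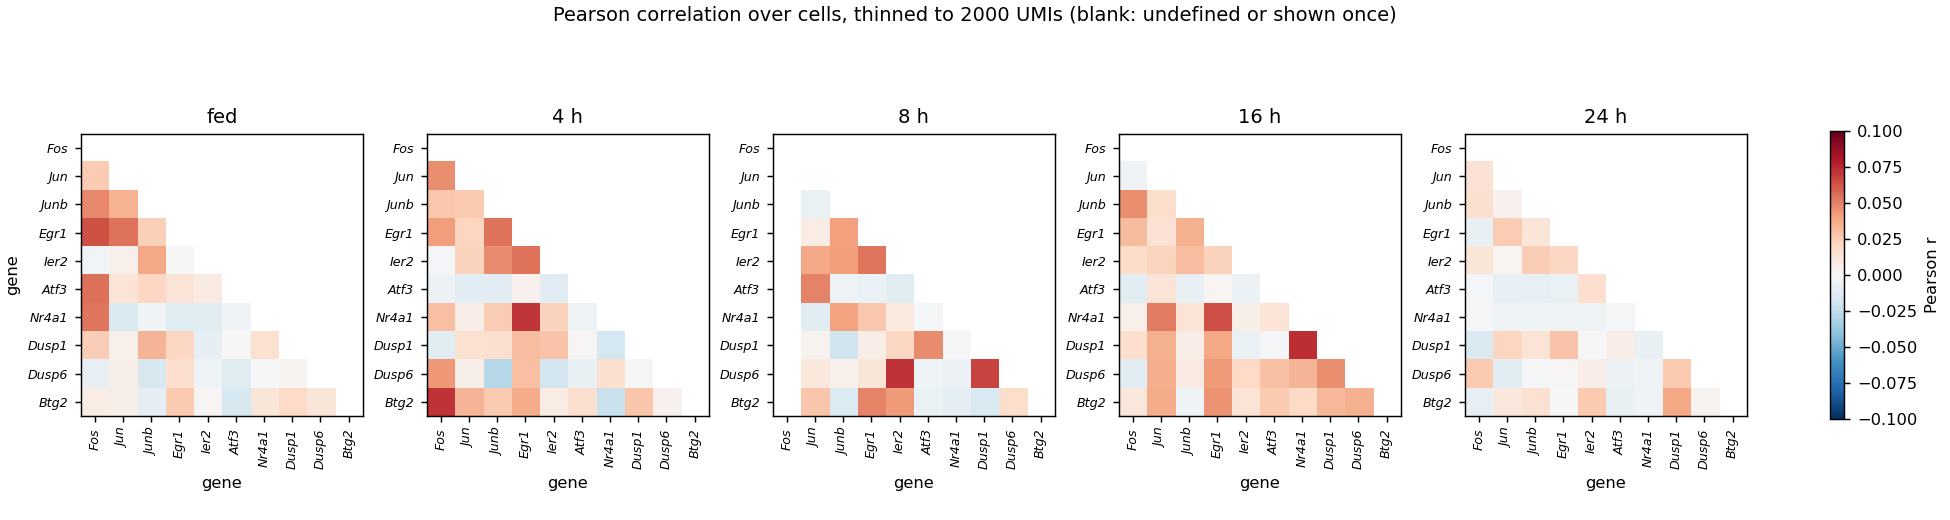
Pearson correlation across cells for each of the 45 pairs of genes (both axes), 1 panel per library, cells thinned to 2000 UMIs, on a colour scale from -0.1 to 0.1. Fos pairs are blank at 8 h because no thinned cell had a Fos UMI in this draw. Pairs above 0 number 37 of 45 at 16 h and 23 of 45 at 24 h.

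The genes whose counts were most like the summed signal across cells differed by library. Pck1, the gluconeogenic enzyme PEPCK, was among the 10 genes most correlated with the summed thinned UMIs in 4 of 5 libraries (0.12 to 0.22), and Neat1, a nuclear long noncoding RNA, in 3 (0.10 to 0.17). Among the leading 5 were Ptma, Fth1, Scp2 and Pck1 in the fed library, and Pck1, Alb, Tat and Uox at 16 h. Malat1 and Neat1 led at 4 and 24 h, followed by Selenop in both, then Cyp2f2 and Zfp36l1 at 4 h and Zbtb20 and Cyp3a25 at 24 h. At 8 h the leading 5 were Neat1, Lars2, Etnppl, Ftcd and Gm26917. The correlation with Malat1 was 0.23 at 4 h and 0.25 at 24 h, and that with Pck1 was 0.22 at 16 h. These values come from cells of 1 library each and carry no test.

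Position along the lobule, read from other genes, went with the level. Hepatocytes were ranked within each library by a score of portal landmark genes minus central landmark genes and split into 3 equal groups, here called the portal, middle and central tertile, which are ranges of a score and not measured positions. The summed level was 534 against 391 CPM (portal against central) when fed, 506 against 254 at 4 h, 225 against 172 at 8 h, 820 against 523 at 16 h and 244 against 149 at 24 h. As log2 ratios these were 0.45, 0.99, 0.39, 0.65 and 0.71. The portal tertile was higher in all 5 libraries. Among cells at or above the median UMI count of their library, the ratios were 0.33, 0.62, 0.29, 0.56 and 0.36, all in the same direction but smaller in all 5 libraries, most so at 4 and 24 h.

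Egr1, Fos and Btg2 showed a wide difference at 4 h. In the 4 h library Egr1 measured 118 CPM portally and 38.0 CPM centrally (log2 1.63, interval 1.47 to 1.79), and 29.5 and 6.99 CPM at 24 h (log2 2.08). Fos stood at 23.1 and 5.05 CPM at 4 h, and Btg2 at 59.2 and 19.3 CPM. Split by UMI depth instead, the deepest against the shallowest tertile at 4 h gave log2 1.74 for Egr1, 1.27 for Fos and 1.55 for Btg2. For Egr1 at 24 h it gave 2.33. The portal to central ratios of single genes were not taken at equal depth, and the part of depth in them was not tested. Nr4a1 at 16 h, its peak, measured 52.6 CPM portally and 20.3 CPM centrally (log2 1.37, interval 1.14 to 1.60). Dusp6 differed from the rest. In the fed library it was lower in the portal tertile, at 32.3 against 55.4 CPM (log2 -0.78, interval -0.96 to -0.60), at 4, 8 and 16 h its interval included 0, and at 24 h it was higher in the portal tertile (log2 0.61). Of the 10 genes, 6, 8, 5, 9 and 9 had a portal to central interval above 0 in time order, and 1, Dusp6 in the fed library, had one below.

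**Figure D5:**
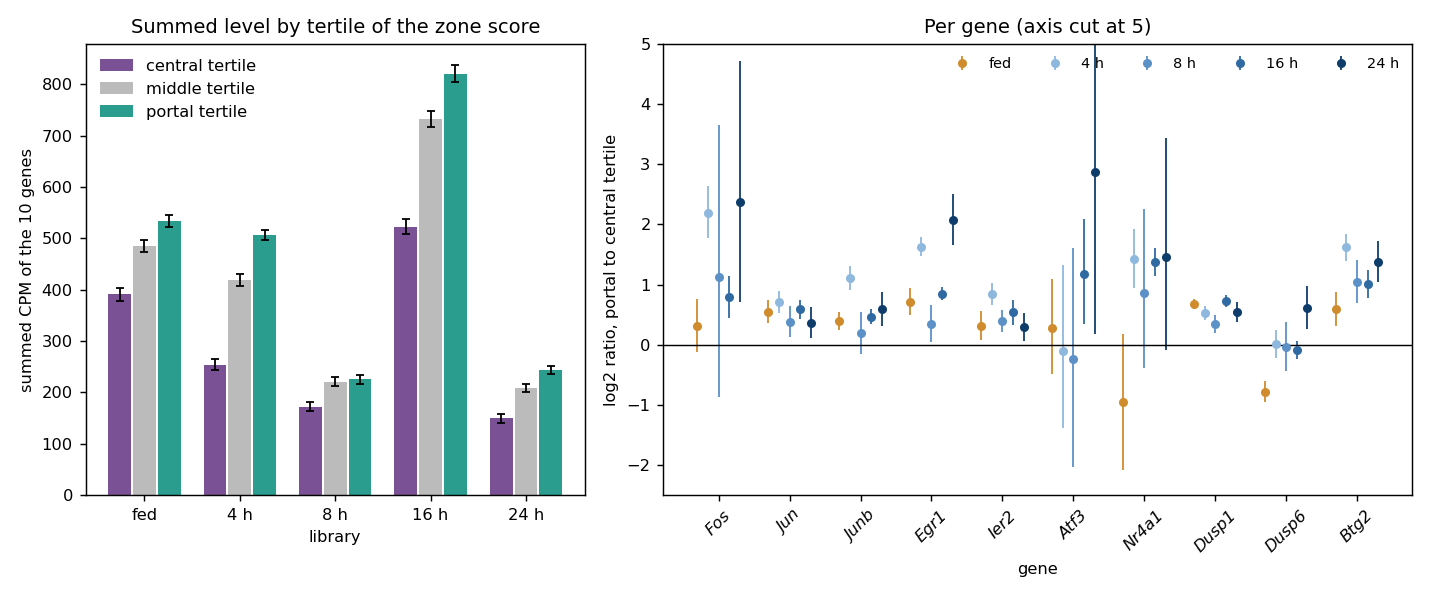
Left: summed CPM of the 10 genes in the central, middle and portal tertile of each library (x axis), bars from 0 with exact Poisson 95% intervals. Right: log2 ratio of portal to central CPM per gene (x axis) and library (colour) with exact 95% counting intervals, the upper limit of Atf3 at 24 h lying beyond the axis. The sums rise from central to portal in every library, and Dusp6 in the fed library lies at -0.78.

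Depth and mitochondrial share went with the level too, unequally between libraries. From the shallowest to the deepest tertile of cells the sum went from 392 to 530.5 CPM in the fed library, from 214 to 464 CPM at 4 h and from 119 to 234 CPM at 24 h, but only from 205 to 216 CPM at 8 h. At 16 h it was highest in the middle tertile, at 615, 765 and 685 CPM. From the lowest to the highest tertile of mitochondrial share the sum went from 562 to 847 CPM at 16 h and from 335 to 475 CPM at 4 h, and stayed between 207 and 211 CPM at 8 h. In the fed library (467, 502 and 471 CPM) and at 24 h (191, 225 and 211 CPM) it was highest in the middle tertile. At 16 h Nr4a1 was 17.9 CPM in the tertile with the lowest mitochondrial share and 64.8 CPM in the highest (log2 1.86, interval 1.63 to 2.09), whereas Junb was 107 and 98.3 CPM. In the fed library Dusp6 was lower where the mitochondrial share was highest, at 31.2 against 43.5 CPM. The part of either measure in the differences between libraries was not tested.

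A list of 43 other immediate-early genes moved like the 10 at some steps and not at others. Of the 19 to 22 at the minimum in the comparisons with fed, 6, 9, 2 and 7 were 2-fold lower at 4, 8, 16 and 24 h, beside 6.04, 11.2, 3.6 and 8.77% of all genes. Those 2-fold higher numbered 0, 2, 4 and 2, beside 3.67, 5.68, 2.87 and 4.73%. The median log2 ratios were -0.54, -0.64, 0.29 and -0.70. From 4 to 8 h 2 of 14 were lower (background 2.06%) and 1 higher (1.12%), with a median of -0.22 beside -1.36 for the 10 genes. From 8 to 16 h 12 of 20 were higher (background 10.5%) and 1 lower (7.25%), and from 16 to 24 h 11 of 20 were lower (5.78%) and 1 higher (5.19%). Unlike the 10 genes, their median was below that of all genes at 4 h (-0.54 against -0.09). Per1, a clock gene that is also cyclic AMP-responsive, had the highest ratio at 4, 8 and 24 h, with 9.61, 18.4, 28.4, 11.9 and 27.0 CPM. Per1 was thus high at 8 and 24 h, where Egr1 was low. Klf6 had the highest ratio at 16 h, at 13.1 CPM against 5.40 when fed. Klf10 had the lowest ratio at 4 h (117 CPM fed, 24.2 at 4 h), Socs3, a feedback inhibitor of cytokine signalling, at 8 and 24 h (31.4 CPM fed, 1.92 and 2.18 later). Myc had the lowest ratio at 16 h, with 35.6, 13.4, 2.63, 2.74 and 3.49 CPM, and stayed low at 16 h.

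Of 12 feedback targets of ERK signalling, 5 reached the minimum. Phlda1 had the lowest ratio to fed at each of the 4 times, at 749, 274, 52.6, 293 and 97.1 CPM, and was 2-fold lower each time. Errfi1, a feedback inhibitor of the EGF receptor, had the highest ratio at 4, 8 and 24 h but stayed at 1458 to 1716 CPM. Spred2 had the highest ratio at 16 h, with 15.2 CPM against 12.7 when fed. Like Dusp1, Phlda1 was highest when fed and rose again from 8 to 16 h (2.48 on the log2 scale).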

How the data were processed

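Hepatocytes of 5 libraries, 1 per time point, were profiled with 10x Genomics 3' v3 chemistry, per the labels' protocols. The authors deposited raw UMI counts by gene and barcode, made without normalization by Cell Ranger 6.0.1 on mm10 per the submitters' processing notes. The sources used here do not state read filters or the annotation. The table held 50000 barcodes, 10000 per library, with 40002260 to 68330252 UMIs per library, and 32285 genes, of which 32158 IDs (99.6%) were found in GENCODE M21.

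The 10 genes and all lists were chosen with earlier results of these data known. Genes outside the 10 were named by rule, with some exceptions. The rule took the highest and lowest ratio to fed of each list at 10 CPM. It also took the 5 genes most correlated with the summed UMIs in each library. Those among the top 10 in 3 or more libraries were added. Fgf21, which is given by its ratio to the library before, cell type markers and the genes with the lowest correlations were named outside this rule. Not every gene that this rule names is reported here. UMIs were summed over hepatocytes per library and divided by non-mitochondrial UMIs (CPM). Intervals are 95%: exact Poisson for CPM, exact conditional binomial for ratios, and Clopper-Pearson for shares. Called means at least 2-fold at 10 CPM or more in either library. Cells were thinned at random to 2000 non-mitochondrial UMIs (1 draw, seed 11) for shares, spread and correlations, and filters on cells kept that draw. No doublet caller was run, and the 5% deepest cells were left out as an alternative. A barcode counted as another cell type with at least 2 markers, 3 UMIs and 0.1% of UMIs from that type's list. Cyr61 and Ctgf were matched as Ccn1 and Ccn2. Promoters came from the RefSeq table of GRCm38.p6.

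The ratio and correlation steps were tested on simulated data. Alternatives covered the denominator, TMM factors (edgeR 4.0.16 in R 4.3.3), median-of-ratios factors, cell filters, minimum CPM and thinning depth. Splits by zone score in deep cells or without other cell types, the barcodes under 2% mitochondrial UMIs alone, another random draw (seed 12) and the mean share over all draws (hypergeometric) were added after seeing the data. Scripts ran on Python 3.11.15 with pandas 2.3.3, scipy 1.17.1 and numpy 2.4.6, and plots used matplotlib 3.10.9.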

Additional observations from a re-analysis of the deposited data

Results flagged for a closer look

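Barcodes with under 2% mitochondrial UMIs were outside the hepatocyte comparisons, yet held these transcripts in every library. The summed level of the 10 genes in them was 240.6 CPM in the fed library (interval 226 to 256, 968 UMIs) and 129.9 CPM at 4 h (123 to 137, 1464 UMIs). It was 113.8 CPM at 8 h (174 UMIs), 294.8 CPM at 16 h (116 UMIs) and 123.8 CPM at 24 h (2312 UMIs). The 16 h library was highest and the fed library next, as in hepatocytes. The 4, 8 and 24 h sums were lower, and the counting interval at 8 h (97.6 to 132) holds the sums at 4 and 24 h, so no lowest library can be named. Junb in these barcodes was at 43.5, 21.8, 13.1, 53.4 and 22.2 CPM, and Nr4a1 at 0.746, 0.710, 0, 12.7 and 0.375 CPM.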

How the results depend on the processing

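No paired analysis was possible because each time point is 1 library. Of 832 ratios of single genes under 12 other settings, 631 moved by less than their counting interval, 197 moved further, and 4 that were past 2-fold changed sign, all 4 in the barcodes under 2% mitochondrial UMIs alone. No counting interval was made for the ratios within those barcodes. Across the settings on hepatocytes, the order of the summed CPM kept 16 h highest, while 8 and 24 h changed places as the lowest. The values below are the sums, medians, counts and shares that moved beyond the counting interval, or for counts by over 1.5 times, and the single genes that changed sign past 2-fold, with 4, 8, 16 and 24 h meaning against fed for ratios and counts unless another time is given. The cause was not tested for any of them, apart from the denominators, minimums and random draws, which act by construction. The rare genes rest on few UMIs, Fos at 8 h on 23 and Atf3 on 21 to 103 per library. With 0 to 30% mitochondrial UMIs, the summed CPM came to 459 (fed), 367 (4 h) and 183 (24 h) and the median log2 ratios to 0.28 (4 h), -1.40 (24 h) and -1.15 (8 h against 4 h). Here, the counts 2-fold higher came to 1 (4 h). With 3000 or more UMIs, the summed CPM came to 491 (fed), 438 (4 h), 712 (16 h) and 219.5 (24 h). With 5 to 20% mitochondrial UMIs, the summed CPM came to 394 (4 h) and 219 (24 h) and the median log2 ratios to 0.25 (4 h). Here, the counts 2-fold higher came to 1 (4 h) and the shares of cells with a UMI (%) to 48.2 (4 h). With TMM scaling, the summed CPM came to 438 (fed), 449 (4 h), 225 (8 h), 663 (16 h) and 218 (24 h) and the median log2 ratios to 0.60 (4 h), -1.11 (8 h) and -0.91 (24 h). With this, the counts 2-fold higher came to 4 (4 h) and 1 (8 h) and the counts 2-fold lower to 0 (4 h). With all UMIs as the denominator, the summed CPM came to 423 (fed), 343 (4 h), 189 (8 h), 602 (16 h) and 178 (24 h) and the median log2 ratios to 0.26 (4 h) and -1.20 (8 h against 4 h). There, the counts 2-fold higher came to 1 (4 h). In another random draw to 2000 UMIs, the shares of cells with a UMI (%) came to 33.9 (8 h) and the median pair correlations to -0.00351 (8 h). With genes over 1% of UMIs left out of the denominator, the summed CPM came to 590.4 (fed), 500.3 (4 h), 250.2 (8 h), 848 (16 h) and 257 (24 h). With the mean of per-cell CPM, the summed CPM came to 449 (fed), 348 (4 h) and 182 (24 h) and the median log2 ratios to 0.18 (4 h), -1.15 (8 h), -1.26 (24 h) and -0.97 (8 h against 4 h). With this, the counts 2-fold higher came to 1 (4 h) and the counts 2-fold lower to 2 (4 h). As the mean over all draws to 2000 UMIs, the shares of cells with a UMI (%) came to 33.2 (8 h). With median-of-ratios scaling, the summed CPM came to 448 (fed), 439 (4 h), 223 (8 h), 669 (16 h) and 218 (24 h) and the median log2 ratios to 0.53 (4 h), -1.16 (8 h) and -0.94 (24 h). With this, the counts 2-fold higher came to 4 (4 h). With a minimum of 50 CPM, the counts 2-fold higher came to 1 (4 h), 1 (16 h) and 5 (16 h against 8 h) and the counts 2-fold lower to 2 (8 h) and 1 (8 h against 4 h). With no minimum, the counts 2-fold lower came to 2 (4 h) and 5 (24 h). In barcodes under 2% mitochondrial UMIs alone, the summed CPM came to 241 (fed), 129.9 (4 h), 114 (8 h), 295 (16 h) and 124 (24 h) and the median log2 ratios to -0.71 (4 h), -1.61 (8 h), 0.25 (16 h), -1.32 (24 h), -0.55 (8 h against 4 h), 1.96 (16 h against 8 h) and -1.18 (24 h against 16 h). Here, the counts 2-fold higher came to 0 (4 h) and 5 (16 h against 8 h) and the counts 2-fold lower to 2 (4 h) and 0 (8 h against 4 h). There, Egr1's log2 ratio came to -0.42 (4 h) and Btg2's log2 ratio to -0.18 (4 h). From 4 to 8 h, Dusp6's came to 0.07 and Btg2's to 0.26. Thinned to 1000 UMIs, the shares of cells with a UMI (%) came to 34.3 (fed), 26.7 (4 h), 17.9 (8 h), 47.7 (16 h) and 15.6 (24 h) and the median pair correlations to -0.00188 (8 h) and -0.00294 (24 h). Thinned to 4000 UMIs, the shares of cells with a UMI (%) came to 81.4 (fed), 76.5 (4 h), 54.1 (8 h), 88.4 (16 h) and 54.3 (24 h) and the median pair correlations to -0.00116 (8 h) and 0.0421 (16 h). Without the 1% of cells highest in the 10 genes, the summed CPM came to 472 (fed), 414 (4 h) and 682 (16 h). Without the 5% deepest cells, the summed CPM came to 419.6 (4 h), 709 (16 h) and 207 (24 h).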

Other observations

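Heat-shock genes, which are also induced by tissue dissociation, followed another course than the immediate-early genes. The 12 genes of this list summed to 4427, 3009, 2670, 2100 and 2549 CPM and were highest in the fed library, with 5, 6, 6 and 6 of 11 at the minimum 2-fold lower at 4, 8, 16 and 24 h, beside 6.04, 11.2, 3.6 and 8.77% of all genes, and 0 higher, beside 3.67, 5.68, 2.87 and 4.73%. Their sum was lowest at 16 h, where that of the immediate-early genes was highest. Hspb1, a small heat-shock protein, had the lowest ratio at 8, 16 and 24 h, at 42.9, 10.96, 5.29, 5.94 and 1.81 CPM. Hspa1b, an inducible HSP70 gene, departed from its list: its 21.8, 2.06, 4.08, 24.6 and 1.65 CPM were high when fed and at 16 h. Hspd1, the mitochondrial chaperonin, had the highest ratio at 4, 8 and 24 h and lay between 393 and 606 CPM.

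Of 12 genes of the integrated stress response, 11 were matched to a single ID and 5 or 6 reached the minimum against fed. Ddit4, an inhibitor of mTORC1 signalling, peaked at 8 h, where most of the immediate-early genes were lowest, with 5.29, 14.8, 56.1, 2.68 and 7.42 CPM. Trib3 had the highest ratio at 16 h (10.4 CPM against 1.46) and Sesn2 at 24 h (11.2 against 2.65). Atf4, the central factor of the response, had the lowest ratio at 4 and 8 h and stayed between 73.2 and 95.8 CPM. Fgf21, a fasting hormone of the liver, rose by 2.64 on the log2 scale from 8 to 16 h, to 18.7 CPM.

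Saa2 and Saa1, acute-phase genes, had the lowest correlation with the summed immediate-early UMIs across cells at 16 h, at -0.28 each over 7628 cells. In the fed library the lowest were Apoa2 (-0.21) and Apoe (-0.20), and at 4 h Cyp2e1, a central enzyme (-0.19). These are descriptions within 1 library with no test, and the genes were named after their values were seen.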
